A study of Homo sapiens with 6 samples.

Results

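Genes for the 5 oxidative phosphorylation complexes were compared between vector control (VC) and CNTNAP4 knockout (KO) osteosarcoma cells. Members were taken by symbol: nuclear genes of complexes I to V and the assembly factors of complex I named NDUFAF, with pseudogene rows left out. The symbols do not take CYC1 of complex III or NDUFAB1 of complex I. This gave 95 of the 54308 genes listed. They comprised 36 genes of complex I, 8 complex I assembly factors, 4 genes of complex II, 9 of complex III, 18 of complex IV and 20 of complex V. The supercomplex factor COX7A2L is counted with complex IV, and the inhibitor ATP5IF1 and the readthrough transcript ATP5MF-PTCD1 with complex V.

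Complexes I to IV pass electrons from NADH and succinate to oxygen and, at complexes I, III and IV, pump protons across the inner mitochondrial membrane. Complex V, the ATP synthase, uses the return of these protons to make ATP. Most subunits are encoded in the nucleus, imported into mitochondria and joined there to subunits encoded by the mitochondrial genome, with the help of assembly factors that are not part of the finished complex.

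143B is a human osteosarcoma line derived from HOS cells. The VC group carried the vector plasmid on the control genotype, and the KO group carried the CRISPR/Cas9 plasmid against CNTNAP4, a cell surface protein of the contactin-associated family. The labels give 48 h of transfection for both groups, whereas the study's methods describe longer exposure followed by sorting and outgrowth of single-cell colonies. Each group had 3 libraries of RNA from clonal cells, so a difference between the groups and a difference between clones cannot be told apart, and p-values measure the spread between these libraries, which may be technical.

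The deposited values were log2 signals that had been brought to a common distribution across libraries, so the depth behind each value is unknown. The targeted gene, CNTNAP4, had a value in VC 3 alone, of -7.18, close to the floor of the table, and so did not check the labels. Of 7 markers of mesenchyme and the osteoblast lineage, 3 were called higher and 1 lower in KO. VIM lay between 10.33 and 10.93 in the 6 libraries, RUNX2 between 1.30 and 1.69, and COL1A1 between 2.28 and 2.73, higher in KO by 0.33. SPP1 was higher in KO by 1.55 (adjusted p = 0.00963) and ALPL by 0.58 (adjusted p = 0.0202). COL1A2 was near the floor, between -5.72 and -4.59, and lower in KO (-0.81, adjusted p = 0.0161), and SP7, a late osteoblast regulator, had values of -6.52 or lower in 4 libraries and none in the others. The blood marker PTPRC was -4.35 or lower and the endothelial marker PECAM1 was -4.64 or lower in every library. The epithelial marker EPCAM lay between 1.62 and 1.79 in VC and between 0.84 and 1.16 in KO, while the epithelial markers KRT5 and CDH1 had values of -5.34 or lower in VC and none in KO, and whether EPCAM bears on the values below was not tested.

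Of the 95 members, 88 had values in all 6 libraries and were tested with limma, with p-values adjusted over all 19306 genes that had at least 2 values in each group. At an adjusted p under 0.05, 4 members were higher and 11 lower in KO. Across all tested genes 32.9% were called, 13.1% higher and 19.8% lower, against 17.0% of the members, 4.55% higher and 12.5% lower. The members lay high in the table, with a median at percentile 94.8 of mean signal, and of the tested genes in the upper 10% by signal 16.8% were higher and 20.9% lower. These shares were not tested against each other. No member changed by 1 or more on the log2 scale, and 62 of the 88 lay within 0.25 of no change. The median log2 fold change of the members was -0.09, that of all tested genes was -0.13, and that of genes in the upper 10% of signal was -0.07. Below 0 lay 56 of the 88 members and 11540 of the 19306 tested genes. In bulk RNA, fewer cells of a type and less RNA per cell cannot be told apart. With each library centred on its median, which moved the median of all genes to -0.04, the members split into 10 higher and 6 lower, and NDUFS5, UQCRB, SDHD, NDUFB1 and NDUFV2 were no longer called. Calls also depended on single libraries, since 0 members passed without VC 1, without VC 3 or without KO 3, 2 passed without VC 2, 28 without KO 1 and 9 without KO 2.

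**Figure D1:**
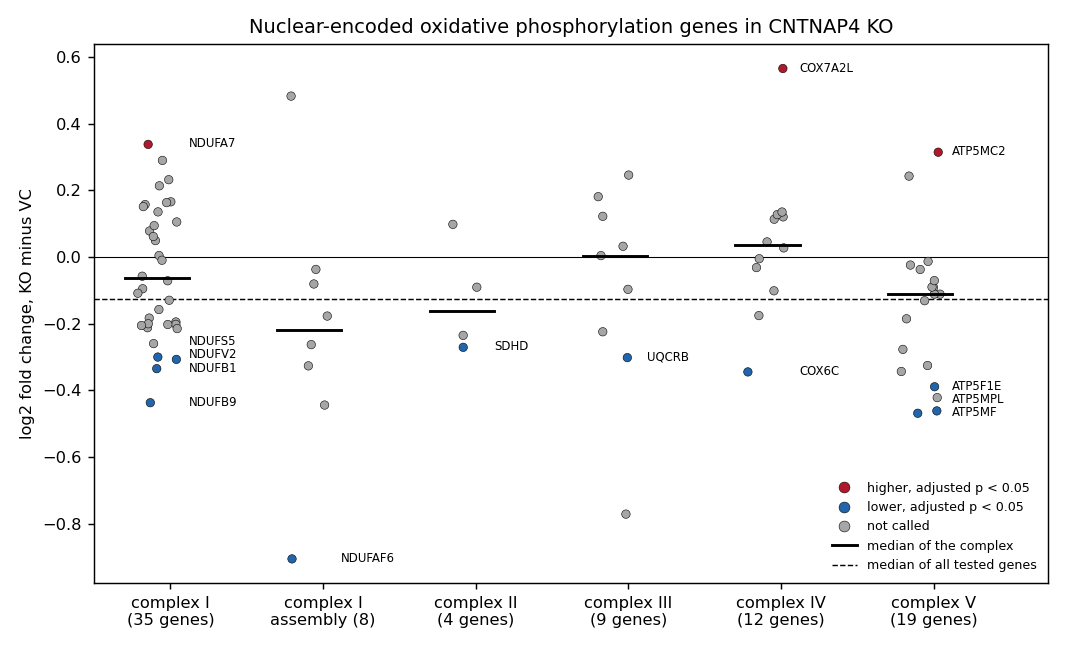
Log2 fold change (KO minus VC) of 87 of the 88 tested members, by complex, with coloured points for 14 of the 15 called genes, short bars for the median of each complex and a dashed line at the median of all tested genes (-0.13). Most points lie within 0.25 of 0, NDUFAF6 is the lowest at -0.91 and COX7A2L the highest at 0.57.

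The catalytic core of complex I carries the flavin and the iron-sulfur clusters. NDUFV2, an iron-sulfur subunit of the NADH-oxidising module, had 5.20, 5.30 and 5.21 in VC and 5.01, 4.90 and 4.88 in KO. The groups did not overlap, and NDUFV2 was lower by 0.31 (log2 fold change -0.31, standard error 0.07, adjusted p = 0.0327). Several other core genes did not pass. The flavin-binding NDUFV1 differed by 0.06 and the iron-sulfur subunit NDUFS1 by -0.10, with adjusted p of 0.572 and 0.291. NDUFS3, NDUFS7 and NDUFS8 differed by -0.06, 0.16 and 0.16, with adjusted p of 0.670, 0.280 and 0.251. NDUFV2 passed in 1 of the 6 fits that left out a library, with the highest adjusted p at 0.0988.

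Of the 29 supernumerary subunits of complex I, which surround the core and are needed for its assembly and stability, 1 was called higher and 3 lower. These calls are 13.8% of the 29, beside 32.9% of all tested genes. NDUFA7 had 5.18, 5.13 and 5.17 in VC and 5.48, 5.57 and 5.45 in KO, and was 0.34 higher (standard error 0.07, adjusted p = 0.0226). NDUFB9, a subunit of the membrane arm, had 8.13, 8.07 and 8.05 in VC and 7.71, 7.60 and 7.63 in KO. Its KO values lay well apart from the VC values, and the change was -0.44 (standard error 0.07, adjusted p = 0.0141), the smallest adjusted p among the members. NDUFB1, also of the membrane arm, had 6.29, 6.33 and 6.30 in VC and 6.12, 5.83 and 5.98 in KO. The NDUFB1 groups did not overlap, the change was -0.33 (adjusted p = 0.0475), and KO 1 was the library nearest to VC. NDUFS5 (-0.30, adjusted p = 0.0491) was the other subunit called lower, and is named here after its values were seen. The median over all 36 subunits of complex I was -0.06, with 16 above 0 and 20 below (19 and 17 with centred libraries).

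Among the 8 NDUFAF assembly factors, which insert cofactors and join intermediates of complex I, 1 was called (12.5%, beside 32.9% of all tested genes). Of the 8, 7 had log2 fold changes below 0 (5 with centred libraries), with a median of -0.22. Of all 19306 tested genes 11540 were below 0, with a median of -0.13. NDUFAF6 had 1.21, 1.24 and 1.22 in VC, a spread of 0.02 (SD, n = 3), and 0.67, 0.07 and 0.22 in KO, with an SD of 0.31. It was the member with the largest change, at -0.91 (standard error 0.17, adjusted p = 0.0182), or 0.534 of the VC level. The call held in 2 of the 6 fits that left out a library, and the highest adjusted p was 0.0642. NDUFAF6 lies on chromosome 8, whose other tested genes had a median of -0.33.

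In complex II, which oxidises succinate, 1 of the 4 genes was called (25%, beside 32.9% of all tested genes), and their median was -0.16. SDHD, a membrane anchor with a place for ubiquinone, had 5.80, 5.91 and 5.78 in VC and 5.63, 5.49 and 5.55 in KO. The groups did not overlap, and SDHD was lower at -0.27 (standard error 0.08, adjusted p = 0.0495). SDHA, the flavoprotein that binds succinate, had 4.81, 4.71 and 4.80 in VC and 4.66, 4.48 and 4.46 in KO, without overlap and without passing the test (-0.23, adjusted p = 0.0833). The iron-sulfur subunit SDHB (0.10, adjusted p = 0.405) and the other anchor, SDHC (-0.09, adjusted p = 0.455), were not called.

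Complex III, the cytochrome bc1 complex, had 1 call among 9 genes (11.1%, beside 32.9% of all tested genes) and a median of 0.00. UQCRB, a small subunit beside the quinone site, had 4.74, 4.85 and 4.71 in VC and 4.43, 4.50 and 4.47 in KO, and was lower at -0.30 (standard error 0.07, adjusted p = 0.0322). The core proteins lay the other way without passing, UQCRC1 at 0.25 (adjusted p = 0.0754) and UQCRC2 at 0.12 (adjusted p = 0.199), each with all 3 KO values above VC. The Rieske iron-sulfur protein UQCRFS1, which hands electrons to cytochrome c1, had 5.22, 5.18 and 5.28 in VC and 5.11, 4.88 and 5.02 in KO (-0.22, adjusted p = 0.0981). The hinge protein gene UQCRH was level between the groups (0.00, standard error 0.06, adjusted p = 0.962). Its near-identical copy UQCRHL had low and scattered values, from -3.95 to -1.56, and reads may be split between the copies (-0.77, standard error 0.55, adjusted p = 0.318).

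Complex IV, cytochrome c oxidase, had 18 genes listed and 12 tested, with 1 higher, 1 lower and a median of 0.04. These calls are 16.7% of the 12, beside 32.9% of all tested genes. COX7A2L, a COX7A-related protein that joins complexes III and IV into supercomplexes, had 4.81, 4.82 and 4.72 in VC and 5.12, 5.54 and 5.39 in KO. It was the member with the largest rise, at 0.57 (standard error 0.13, adjusted p = 0.0276) or 1.48-fold, and KO 2 was the library farthest from VC. Its paralog COX7A2, a subunit of the enzyme, had 5.31, 5.22 and 5.24 in VC and 5.32, 5.35 and 5.23 in KO, and these groups overlapped (0.05, adjusted p = 0.641). Within libraries, the log2 difference COX7A2L minus COX7A2 went from -0.47 ± 0.07 in VC to 0.05 ± 0.22 in KO (SD, n = 3). This difference had an exact two-sided permutation p of 0.1, the smallest that 3 against 3 libraries allow. It reuses the COX7A2L values that were already called higher, so it is no separate support.

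COX6C, a small membrane subunit, had 6.16, 6.11 and 6.06 in VC and 5.80, 5.71 and 5.80 in KO, and was lower at -0.34 (standard error 0.07, adjusted p = 0.0226). The table lists 17 COX6C pseudogene rows apart from the gene, and reads may be split between these copies. The same limit holds for other members, since 25 had at least 1 pseudogene row, among them ATP5MF with 6 and UQCRB with 3. The regulatory subunit COX4I1, which binds adenine nucleotides, was level (-0.01, standard error 0.08, adjusted p = 0.964), and COX5A (0.13, adjusted p = 0.141) and COX5B (0.12, adjusted p = 0.364) did not pass. NDUFA4, first described in complex I and now placed in complex IV, was not called (-0.18, adjusted p = 0.127). The isoforms of other tissues were at or near the floor. COX6A2, COX7A1, COX7B2 and COX8C had no value in any library, COX4I2 had -5.69 in KO 1 alone, and COX6B2 had -5.83, -6.77 and -5.90 in VC and -6.88 in KO 3. Their widely expressed counterparts were COX6A1 (0.13, adjusted p = 0.184), COX6B1 (-0.03, adjusted p = 0.793), COX7B (-0.10, adjusted p = 0.393) and COX8A (0.11, adjusted p = 0.303).

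Complex V had 19 tested genes, of which 17 had log2 fold changes below 0 and 2 above (13 and 6 with centred libraries), with a median of -0.11. Of all 19306 tested genes 11540 were below 0, with a median of -0.13. In the F1 part, which makes ATP, the alpha, beta and gamma subunit genes ATP5F1A (-0.09), ATP5F1B (-0.11) and ATP5F1C (-0.13) did not pass, with adjusted p of 0.298, 0.389 and 0.192. ATP5F1D, for the delta subunit of the central stalk, lay above VC at 0.24 (adjusted p = 0.108). ATP5F1E, for the epsilon subunit of the same stalk, had 4.45, 4.30 and 4.37 in VC and 4.04, 3.97 and 3.95 in KO. It was lower at -0.39 (standard error 0.07, adjusted p = 0.0193). ATP5IF1, the inhibitor that binds F1 when the proton gradient fails, was not called (-0.09, adjusted p = 0.465).

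The c ring is the proton-driven rotor of the enzyme, and its mature subunit is the same protein made from 3 genes, ATP5MC1, ATP5MC2 and ATP5MC3. ATP5MC2 had 5.69, 5.67 and 5.73 in VC and 5.96, 6.09 and 5.99 in KO. It was higher at 0.31 (standard error 0.07, adjusted p = 0.0282). ATP5MC1 had 7.36, 7.28 and 7.37 in VC and 7.24, 6.78 and 7.02 in KO. ATP5MC1 lay below VC in all 3 KO libraries with a wide spread among them, at -0.33 (standard error 0.13, adjusted p = 0.107). ATP5MC3 lay below VC as well, at -0.19 (adjusted p = 0.136). Listed apart were 8 pseudogene rows of ATP5MC1 and 4 of ATP5MC2, and reads may be split between these copies. Within libraries, the log2 difference ATP5MC2 minus ATP5MC1 was -1.64 ± 0.03 in VC (SD, n = 3) and -1.28, -0.69 and -1.03 in KO. The mean change was 0.64, with an exact two-sided permutation p of 0.1, the smallest that the design allows. This p was fixed beforehand, since ATP5MC2 lay above and ATP5MC1 below VC in every KO library, and it adds no support.

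**Figure D2:**
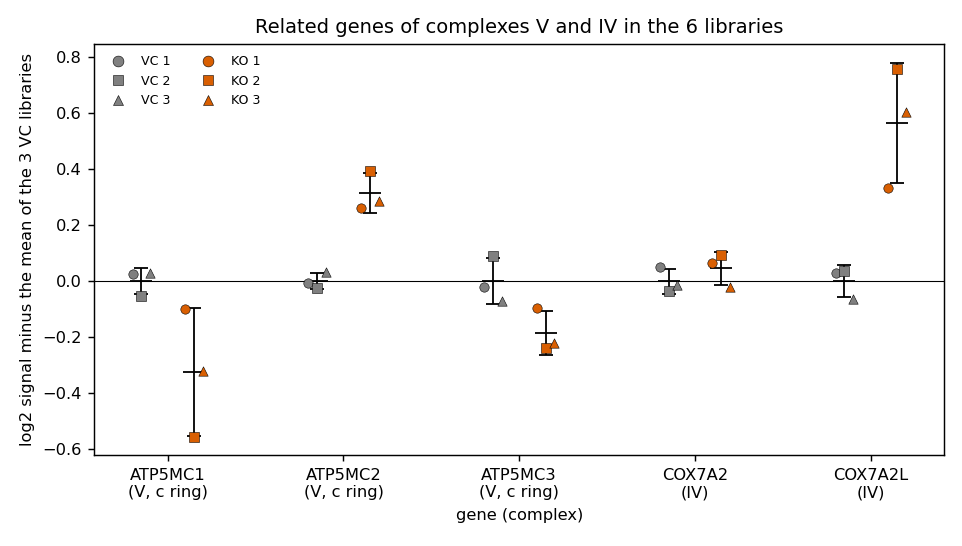
Log2 signal of the c-ring genes and of COX7A2 and COX7A2L in each library, minus the mean of the 3 VC libraries, with points for libraries and bars for the mean and SD of each group (n = 3). ATP5MC2 and COX7A2L lie above 0 in all 3 KO libraries and ATP5MC1 and ATP5MC3 below 0, whereas the COX7A2 groups overlap.

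The supernumerary membrane subunits of complex V, which hold the dimer and the membrane part together, had 2 calls among 5 tested genes, both lower. This is 40% of the 5, beside 19.8% of all tested genes called lower. ATP5MF, for subunit f, had 8.01, 8.03 and 8.06 in VC and 7.81, 7.35 and 7.54 in KO. It was lower at -0.47 (standard error 0.13, adjusted p = 0.0436), with an SD of 0.03 in VC and 0.23 in KO. The readthrough transcript ATP5MF-PTCD1, which shares reads with ATP5MF, was not called (-0.42, adjusted p = 0.170). ATP5MPL, for the 6.8PL proteolipid subunit and now named ATP5MJ, had 6.68, 6.65 and 6.65 in VC and 6.34, 6.06 and 6.21 in KO (-0.46, standard error 0.09, adjusted p = 0.0223). Subunit g was level, with ATP5MG at -0.01 (adjusted p = 0.896), and its retrocopy ATP5MGL had a value of -5.38 in VC 2 alone.

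All 15 called members had groups that did not overlap. Over the 88 members, 18 had every KO value above VC and 34 had every KO value below, which is 20.5% and 38.6%, beside 22.6% and 36.7% of the genes with 6 values. The KO libraries were not alike in distance. KO 2 was farthest from the VC mean in 12 of the 15 called members and in 56 of the 88, and KO 1 was nearest in 12 and in 60. The median deviation of the members from their VC means was 0.01 in KO 1, -0.13 in KO 2 and -0.11 in KO 3, beside -0.04, -0.16 and -0.15 over all genes. The part of the library differences in the calls was not tested.

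**Figure D3:**
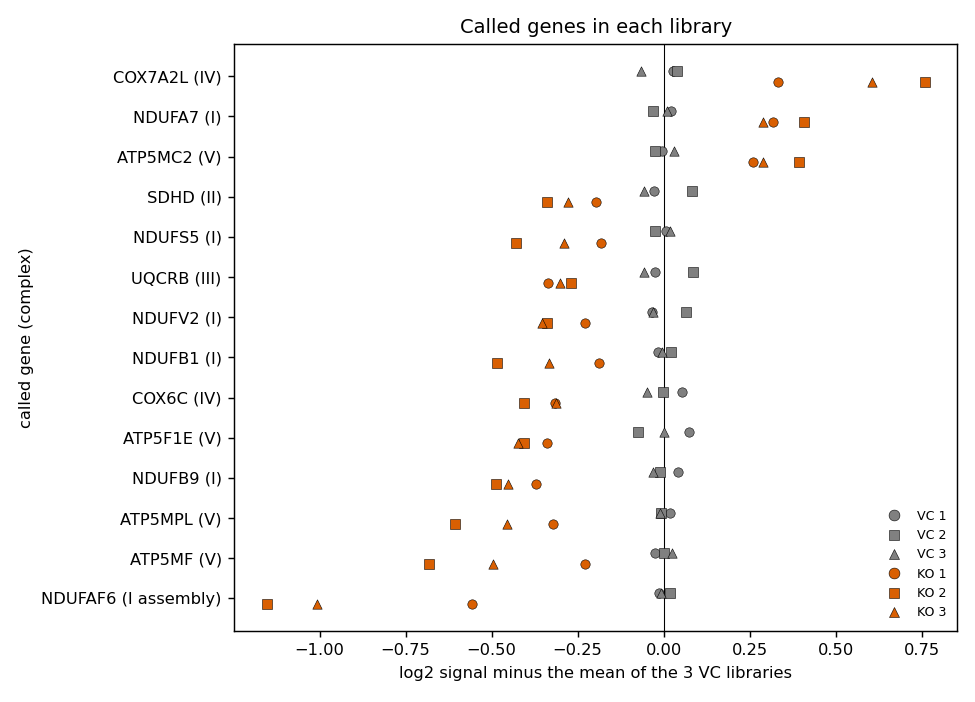
Log2 signal of 14 of the 15 called members in each library, minus the mean of the 3 VC libraries, with grey symbols for VC and orange symbols for KO. VC and KO symbols do not overlap in any row, and KO 2 (squares) is the farthest KO library in 11 of these 14.

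Called members were unevenly placed in the genome. On chromosome 8, all 4 members (NDUFB9, COX6C, UQCRB and NDUFAF6) were lower, and so were both tested members on chromosome 14 (ATP5MPL and NDUFB1). The other genes of these chromosomes were also lower, with medians of -0.39 on chromosome 14 and -0.33 on chromosome 8, where 45.7% and 34.6% of them were called lower. Among those in the upper 10% by signal, 59.2% on chromosome 14 and 50% on chromosome 8 were called lower. UQCRB, COX6C and NDUFB1 were within 0.06 of the median of their chromosome, whereas NDUFAF6 lay 0.58 below that of chromosome 8. On the 4 chromosomes with the lowest medians (14, 8, 20 and 21, chosen after the values were seen), 7 of 11 tested members were lower and 0 higher by limma, with 8 of the 11 at an unadjusted p under 0.05. Of 1942 other genes tested there, 36.7% were lower. On the remaining chromosomes the 77 members had 4 calls in each direction (5.19% each) and a median of -0.04. Of 16130 other genes tested there, 14% were higher and 18.5% lower, with a median of -0.10. With centred libraries these 77 members had 10 higher and 1 lower, and the other 11 members had 0 and 5. Without KO 2 the 77 had 4 higher and 0 lower, without KO 1 they had 6 and 13, and without KO 3 or any 1 VC library they had 0 and 0, where the 11 had 5, 9 and 0 to 2 lower. Both tested members on chromosome 22, whose other genes had a median of 0.29, lay above 0, NDUFA6 at 0.29 (adjusted p = 0.0505) and UQCR10 at 0.18 (adjusted p = 0.375). Of the members called higher, COX7A2L, ATP5MC2 and NDUFA7 lay on chromosomes 2, 12 and 19, at 0.39 to 0.67 above the medians of those chromosomes. Gene copy number was not measured, and its part in these values was not tested.

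**Figure D4:**
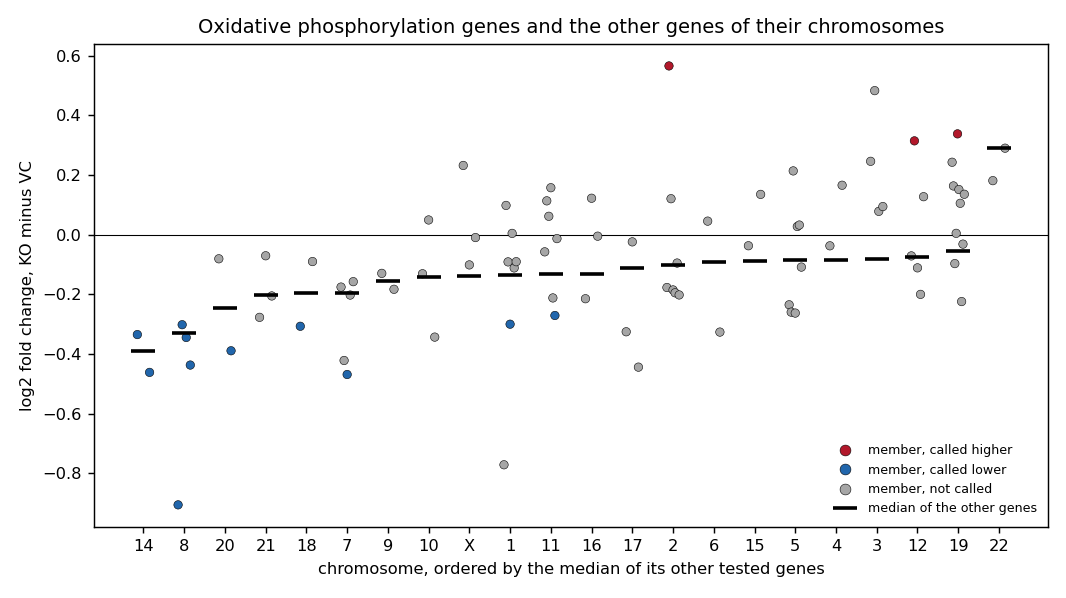
Log2 fold change of 87 of the 88 tested members by chromosome, with black bars for the median of the other tested genes of each chromosome. The members on chromosomes 14 and 8 are all lower and lie near or below low bars, and the 3 shown as called higher lie on chromosomes with bars between -0.10 and -0.06.

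Promoters of these genes are known for sites of the factors NRF1, GABPA, YY1 and SP1. RefSeq promoter sequences, from 250 bases before to 50 after the start on GRCh38.p14 (the labels name GRCh38.p13), were matched to 77 of the 95 members. Those without a match included UQCRHL, NDUFS5, SDHC, ATP5MC3, NDUFB5, ATP5MF-PTCD1, ATP5MF, NDUFAF6, UQCRB, COX6C, NDUFB9, NDUFC2, ATP5F1B, ATP5F1D, COX7A1, COX4I2 and ATP5MGL. Both strands were searched for GCGCANGCGC (NRF1), CCGGAAG (GABPA and other ETS factors), ATGGCGG (YY1) and GGGCGG (SP1), of which the last 2 share the letters GGCGG. The NRF1 letters stood in 23.4% of the member promoters and 6.3% of all 27305 in the table, the GABPA letters in 27.3% and 10.7%, the YY1 letters in 26.0% and 5.7%, and the SP1 letters in 57.1% and 44.6%. In the 10% of tested genes with the highest signals these shares were 16.5%, 25.8%, 15.0% and 72.8%. YY1 letters were found in 13 of 31 complex I promoters and in 1 of 14 for complex V. They stood in 1 of 7 for the complex I assembly factors, 2 of 3 for complex II, 2 of 7 for III and 1 of 15 for IV. Most of the complex I genes with YY1 letters had them after the start, and differences between complexes were not tested. Such matches are letters and not measured sites.

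The 160 bases before the start are shown for some of the members that carry the results above, on the strand of the gene, with motif letters in capitals. They are SDHD (lower, chr11:112086713-112086872, plus strand), ATP5MPL (lower, chr14:103921530-103921689, minus strand), the c-ring pair ATP5MC1 (chr17:48892627-48892786, plus strand) and ATP5MC2 (higher, chr12:53676084-53676243, minus strand), and COX7A2L (higher, chr2:42361218-42361377, minus strand).
SDHD: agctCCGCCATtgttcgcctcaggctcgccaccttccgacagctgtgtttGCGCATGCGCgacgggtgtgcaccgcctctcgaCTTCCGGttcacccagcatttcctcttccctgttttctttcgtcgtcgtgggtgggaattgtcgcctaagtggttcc
ATP5MPL: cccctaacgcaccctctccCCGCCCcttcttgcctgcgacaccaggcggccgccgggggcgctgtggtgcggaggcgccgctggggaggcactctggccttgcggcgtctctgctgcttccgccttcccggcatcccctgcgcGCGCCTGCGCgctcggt
ATP5MC1: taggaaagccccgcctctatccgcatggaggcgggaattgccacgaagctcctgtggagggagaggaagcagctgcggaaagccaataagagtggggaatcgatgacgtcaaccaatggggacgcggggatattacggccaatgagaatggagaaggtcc
ATP5MC2: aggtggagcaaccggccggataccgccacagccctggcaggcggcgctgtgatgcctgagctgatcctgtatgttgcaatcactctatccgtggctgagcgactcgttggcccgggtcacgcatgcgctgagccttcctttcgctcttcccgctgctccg
COX7A2L: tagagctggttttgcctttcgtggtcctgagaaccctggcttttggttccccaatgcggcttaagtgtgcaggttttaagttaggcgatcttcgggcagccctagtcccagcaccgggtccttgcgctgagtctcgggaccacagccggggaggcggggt
SDHD held YY1, NRF1 and GABPA letters in that order, ATP5MPL held SP1 letters and, near its start, NRF1 letters, and the other 3 stretches held none of these motifs. The longer windows searched also held SP1 letters, across the start in ATP5MC2 and after it in COX7A2L, and further YY1 letters after the start of SDHD. Called members that are not printed differed from these. NDUFA7 (higher) held YY1 and SP1 letters in the 160 bases before its start, and NDUFB1 (lower) held none of the motifs in its window. Motif letters were not tested against the direction of change.

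Of 15 tested regulators of mitochondrial biogenesis, which include NRF1, GABPA and YY1, 5 were called, all lower in KO. This is 33.3% of the list, beside 32.9% of all tested genes called and 19.8% called lower. YY1 was among those called lower (-0.52, standard error 0.12, adjusted p = 0.0293). It lies on chromosome 14, whose genes other than members had a median of -0.39. NRF1 had 2.93, 2.85 and 2.97 in VC and 2.49, 2.02 and 2.49 in KO (-0.59, standard error 0.15, adjusted p = 0.0368). PPARGC1B, a coactivator of these factors, had 1.71, 1.61 and 1.66 in VC and 1.09, 0.22 and 0.71 in KO, the largest fall of the list at -0.99 (adjusted p = 0.0290). NRF1 and PPARGC1B each passed in 2 of the 6 fits that left out a library. The related coactivator PPARGC1A (-0.62, adjusted p = 0.167), the mitochondrial transcription factor TFAM (-0.28, adjusted p = 0.102), ESRRA (0.15, adjusted p = 0.215) and GABPA (0.02, adjusted p = 0.851) did not pass.

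Factors that assemble the complexes were listed beyond the NDUFAF genes. Over all 56 assembly factors of complexes I to V, those NDUFAF genes included, 4 were higher and 12 lower, which is 7.14% and 21.4%, beside 13.1% and 19.8% of all tested genes and 5% and 12.5% of the 80 structural members. The median size of change was 0.22, beside 0.16 in the structural members and 0.39 in all tested genes. These differences between lists were not tested, and the assembly factors had lower signals, with a median at percentile 78.2 against 95.4. TMEM70, which helps assemble complexes I and V and lies on chromosome 8, had 3.05, 3.05 and 2.98 in VC and 2.07, 1.51 and 1.66 in KO, and was lower at -1.29 (standard error 0.16, adjusted p = 0.00972). UQCC1, a factor for cytochrome b of complex III on chromosome 20, had 4.42, 4.42 and 4.40 in VC and 3.52, 2.62 and 3.24 in KO (-1.29, adjusted p = 0.0181). NDUFA4L2, a paralog of NDUFA4 known to be induced in low oxygen, is not counted among the 56. NDUFA4L2 had -1.12, -2.27 and -1.78 in VC and -0.19, 0.62 and 0.43 in KO. It was higher at 2.01 (standard error 0.36, adjusted p = 0.0176), with groups that did not overlap. Other leading calls were UQCC2 (0.42), which acts with UQCC1, the complex IV factors SURF1 (0.40) and COX16 (-0.69), and the F1 chaperone ATPAF1 (-0.36). COX16 lies on chromosome 14, whose genes other than members had a median of -0.39. With single libraries left out, NDUFA4L2 passed in 4 of the 6 fits, UQCC1 and COX16 in 2, and UQCC2, SURF1 and ATPAF1 in 1. In the 4 other complex II genes, 0 were called by limma and 1 had an unadjusted p under 0.05.

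The mobile electron carriers lie between the complexes. CYCS, cytochrome c, had 6.17, 6.33 and 6.17 in VC and 5.45, 5.15 and 5.31 in KO, and was lower at -0.92 (standard error 0.11, adjusted p = 0.00942), beside -0.91 for NDUFAF6 among the members. CYCS and TMEM70 passed in all 6 fits that left out a library, which none of the 15 called members did. CYC1, cytochrome c1 of complex III on chromosome 8, had overlapping groups (-0.14, adjusted p = 0.233). COQ8B, a kinase-like protein of ubiquinone synthesis, was higher at 1.04 (adjusted p = 0.0177), and passed in 3 of the 6 fits. The list of 16 tested genes held CYCS, CYC1, COQ and PDSS genes of ubiquinone synthesis, and ETFA, ETFB and ETFDH. COQ8B was the 1 gene of this list called higher, 3 were called lower and 6 had log2 fold changes above 0. The shares called were 6.25% higher and 18.8% lower, beside 13.1% and 19.8% of all tested genes.

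In the TCA cycle, which supplies the chain with NADH and succinate, 3 of 13 genes were higher and 3 lower (23.1% each). Over all tested genes 13.1% were called higher and 19.8% lower, and the lists were not tested against these shares. OGDH, of the complex that oxidises oxoglutarate, had the largest fall (-0.57, adjusted p = 0.0152). Of 78 mitochondrial ribosomal proteins, which translate the mitochondrial subunits, 6 were higher and 11 lower (7.69% and 14.1%). These ranged from MRPL10 at 0.48 (adjusted p = 0.0265) to MRPS17 at -1.28 (adjusted p = 0.00597). OGDH and MRPS17 lie on chromosome 7, as do CYCS and NRF1, and genes there other than members had a median of -0.19. Of 82 cytosolic ribosomal proteins 10 were higher and 10 lower (12.2% each), from RPL10A at 0.49 (adjusted p = 0.0266) to RPLP2 at -0.69 (adjusted p = 0.0107). The 13 protein genes of the mitochondrial genome were listed without a value in any library, so the subunits that they encode were not analysed here.

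**Figure D5:**
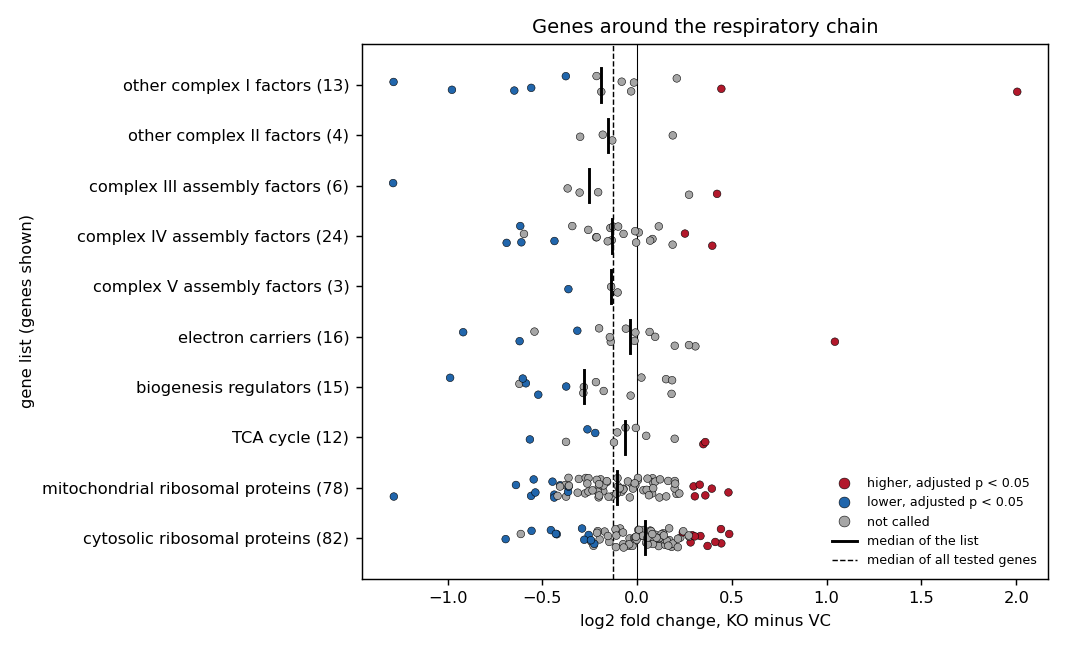
Log2 fold change (KO minus VC) of tested genes of 10 lists around the respiratory chain, with coloured points for called genes, bars for the median of each list and a dashed line at the median of all tested genes (-0.13). The widest changes, NDUFA4L2 at 2.01 and TMEM70 and UQCC1 at -1.29, are in the lists of assembly factors and related genes.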

How the data were processed

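The authors sequenced RNA from 143B cells and deposited 1 table of log2 signals for 3 VC and 3 KO libraries. Per the labels a stranded mRNA kit was used, and the submitters' processing notes name CASAVA, STAR, Partek and GRCh38.p13 without versions, whereas the methods name CLC Genomics and Partek. The sorted log2 values of the libraries nearly coincide, as after quantile normalization, and their linear unit is not given in the sources used here. Read counts are unknown, so no counting error could be given.

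Signals were compared without further normalization in limma 3.58.1 (R 4.3.3), with moderation and Benjamini-Hochberg adjustment over 19306 genes, each with 2 or more values per group. Log2 fold changes are KO minus VC, and tests are two-sided. The script was tested on simulated data.

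Members and lists were chosen with earlier results of these data known. The genes named are members without 2 values per group, isoform pairs, the core subunits of each complex, the 2 largest calls in each direction per complex, NDUFA4, COX7A2L, ATP5IF1, the largest call in each direction of each other list, and 5 regulators. Left out were 106 pseudogene rows, among them COX8BP, a pseudogene that the symbol rule would take. A few genes that this rule names are not reported here. Chromosomes came from RefSeq by symbol. Alternatives were the genes tested, scaling, pseudocount, moderation, library weights, a replicate block, single libraries left out, and NDUFA4 counted with complex I.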

Additional observations from a re-analysis of the deposited data

How the results depend on the processing

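Counts of called members moved with most alternatives, whereas medians moved mainly with scaling. The 4 higher and 11 lower members became 5 and 12 with only genes that had 6 values and 5 and 10 without moderation. They became 10 and 21 over the upper 50% of genes by mean signal, 12 and 24 with 1 added to the linear signal, 10 and 21 with trend and robust moderation, and 16 and 46 with library weights, whose estimation did not converge. The share of all genes called rose alongside, to 59.1%, 40.3%, 41.0% and 72.2%. Median-centred libraries gave 10 and 6, with a member median of -0.0065. There, NDUFS5, UQCRB, SDHD, NDUFB1 and NDUFV2 were no longer called, and 10 of the 15 calls were shared. Adding 1 moved the median of all genes from -0.13 to -0.02.

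For complex I, its assembly factors and complexes II, III, IV and V in that order, genes called higher numbered 5, 1, 0, 1, 1 and 2 in the upper 50% of signal, 5, 0, 0, 1, 2 and 2 with centring, 6, 0, 0, 2, 3 and 1 with 1 added, 5, 1, 0, 1, 1 and 2 with trend and robust moderation, and 8, 1, 0, 2, 3 and 2 with weights. Genes called lower numbered 7, 3, 2, 2, 1 and 6, then 1, 1, 0, 0, 1 and 3, then 8, 4, 2, 2, 2 and 6, then 6, 4, 2, 2, 1 and 6, and 17, 6, 3, 4, 3 and 13. Centring moved the medians of complexes I, II, III, IV and V to 0.019, -0.079, 0.088, 0.12 and -0.028, and weights moved those of III and IV to -0.036 and -0.0082. With weights, the 77 members away from chromosomes 14, 8, 20 and 21 had 16 higher and 36 lower. Placing NDUFA4 in complex I changed no count of complexes I and IV.

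With single libraries left out, 0 to 6 members were higher and 0 to 22 lower, and the member median lay between -0.13 and -0.05. Higher calls ranged from 0 to 3 in complex I and 0 to 1 in III, IV and V, and lower calls from 0 to 8, 0 to 3, 0 to 2, 0 to 2, 0 to 1 and 0 to 6 in the 6 groups. Medians ranged from -0.11 to -0.02 in complex I, -0.26 to -0.18 in its assembly factors, -0.19 to -0.12 in II, -0.011 to 0.024 in III, 0.03 to 0.05 in IV and -0.16 to -0.10 in V. With the replicate block, 0 members were called in either direction or in any complex (1533 of all genes, 7.94%). The numbers do not pair the libraries, since same-numbered libraries deviated together with r of 0.02, 0.01 and -0.01 across genes, and the cause of the lost calls was not tested.

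Among the genes named, signs turned in these alone, and none of them was called. With centring, NDUFS3, COX4I1, COX6B1 and ATP5MG came to 0.026, 0.079, 0.052 and 0.071. With weights, NDUFV1, COX7A2 and ATP5MG came to -0.0014, -0.029 and 0.015. With 1 library left out, NDUFS3 ranged from -0.13 to 0.0047, COX4I1 from -0.049 to 0.028, UQCRH from -0.011 to 0.024, COX6B1 from -0.088 to 0.022, ATP5MG from -0.035 to 0.022 and GABPA from -0.010 to 0.085. Depth is unknown, so what it limits could not be measured.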

Other observations

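The 2 ribosomal RNAs of the mitochondrial genome, looked up after the empty rows of its protein genes were seen, did have values. RNR2, the large ribosomal RNA, had log2 signals of 8.97, 9.05 and 8.95 in VC and 9.45, 9.57 and 9.48 in KO, and was 0.51 higher in KO (standard error 0.07, limma adjusted p = 0.0119). RNR1, the small ribosomal RNA, had 5.83, 5.78 and 5.72 in VC and 6.05, 6.35 and 6.08 in KO, and was 0.39 higher (standard error 0.11, adjusted p = 0.0437). All 3 KO values lay above all 3 VC values in both. The median of the nuclear members was -0.09. The kit named in the labels selects polyadenylated RNA, and what part of these transcripts it captured was not tested.

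NUBPL, which delivers iron-sulfur clusters to complex I, lies on chromosome 14, whose genes other than members had a median of -0.39, and was singled out after its values were seen. It had 0.96, 1.05 and 0.96 in VC and 0.21, -0.03 and -0.13 in KO (-0.98, standard error 0.11, adjusted p = 0.00891), and passed in all 6 fits that left out a library.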
